A study of Mus musculus with 6 samples.

Results

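The Notch pathway genes of cultured satellite cells (SCs) were compared between NF-YAcKO and NF-YAfl/fl. The 10 genes were taken by symbol out of the 35976 genes of the files: the receptors Notch1, Notch2 and Notch3, the ligands Dll1, Jag1 and Jag2, the DNA-binding mediator Rbpj, and the target genes Hes1, Hey1 and Heyl. All 10 passed the filter on low counts. Heyl fell 7.89-fold and Notch1 fell 2.30-fold in mean level in NF-YAcKO, Rbpj and Notch3 were lower without reaching a call, Jag1 was higher without reaching a call, and the remaining 5 genes did not pass the test.

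RNA was sequenced from 3 NF-YAcKO and 3 NF-YAfl/fl cultures. NF-YAcKO mice carry floxed NF-YA alleles and a tamoxifen-inducible Cre under the control of Pax7, so that the deletion occurs in Pax7-expressing cells and need not reach every SC. NF-YAfl/fl mice carry the floxed alleles without Cre, and both groups received tamoxifen (dissolved at 20 mg/ml) at an age the labels give as 5 to 7 weeks. SCs were obtained from hindlimb muscle by depletion of other cells and grown in growth medium before RNA extraction. The labels do not say from how many mice a culture came, so that p-values measure the spread between these cultures.

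Notch signalling passes between touching cells. A ligand of the Delta or Jagged family on one cell binds a Notch receptor on its neighbour, ADAM proteases and gamma-secretase then cut the receptor, and the released intracellular part enters the nucleus, where it joins Rbpj, the protein that holds the complex on DNA. Genes of the Hes and Hey families, which encode basic helix-loop-helix repressors, are the best known targets. In adult muscle the pathway is known for keeping SCs quiescent and for holding back their differentiation.

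Levels are CPM, which are expected counts scaled to library size after TMM normalization, and a spread given after ± is the SD of 3 libraries. The test across the 17348 genes that passed the filter was the quasi-likelihood test of edgeR, and its p-values were adjusted by the Benjamini-Hochberg method (FDR). Calls needed both an FDR below 0.01 and a change of more than 1 on the log2 scale, in either direction. Of all tested genes, 7.67% were called lower and 4.65% higher in NF-YAcKO. Of the 10 Notch genes, 2 were called lower and 0 higher. Without NF-YAfl/fl replicate 3, which stands apart, 2 were also called lower, but these were Heyl and Notch3 in place of Heyl and Notch1. At an unadjusted p under 0.05 edgeR gave 4 lower and 1 higher, and DESeq2 called 3 lower and 0 higher. With an FDR under 0.05 and no demand on size, 4 were lower and 1 higher, against 18.9% and 19.7% of all tested genes. The median log2 fold change of the 10 genes was -0.61, and that of all tested genes was -0.02.

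The libraries differed in more than the targeted allele. Library totals were between 26936230 and 41118984 expected counts. NF-YAfl/fl replicate 3 stood apart from the other NF-YAfl/fl libraries, so that results on single genes that move with it are given also without it. Xist was between 835 and 852 CPM in NF-YAcKO and at most 0.475 CPM in NF-YAfl/fl, and 4 Y-linked genes had the opposite pattern. The study's methods describe male mice, with an age range that differs slightly from that of the labels. Sex, as these genes show it, and genotype therefore cannot be told apart for any gene. This holds for the 10 genes as well, although none of them lies on chromosome X or Y. Nfya at the level of the whole gene was at 27.5 ± 0.873 CPM in NF-YAcKO and 28.7 ± 7.20 CPM in NF-YAfl/fl (log2 fold change -0.06, FDR = 0.814). The paper reports a transcript of the deleted gene by PCR, and its reads were not counted apart here. The whole-gene level therefore does not check the deletion.

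Cell type markers moved with the genotype. The 8 markers of differentiated muscle were all called lower (summed level 45.4 to 126 CPM in NF-YAcKO and 8600 to 11300 CPM in NF-YAfl/fl), and the 8 markers of macrophages were all called higher (127 to 246 CPM and 5.39 to 11.6 CPM). Of the 8 markers of SCs and myoblasts, 6 were tested and 1 was called lower (Cdh15), Pax7 was at 170 ± 28.4 CPM in NF-YAcKO and 88.7 ± 15.8 CPM in NF-YAfl/fl, and the quiescence markers Calcr and Chodl were at 0.223 CPM or less in every library. Summed markers of endothelial cells reached 16.2 to 20.9 CPM and 12.1 to 13.7 CPM, those of fibro-adipogenic progenitors 187 to 220 CPM and 38.1 to 266 CPM, and those of Schwann cells 56.3 to 67.9 CPM and 116 to 207 CPM. In bulk RNA, fewer cells of a type and less RNA per cell cannot be told apart. The part of these shifts in the results on the Notch genes was not tested.

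Among the receptors, Notch1 was called lower, Notch3 was lower with a wide spread, and Notch2, the most abundant of them, did not pass the test. Notch1 (GRCm38, chr2:26457903-26516663, minus strand) encodes a receptor that is active in SCs and myoblasts. Its level was 35.6, 41.1 and 45.8 CPM in NF-YAcKO replicates 1 to 3, and 73.6, 76.4 and 132 CPM in NF-YAfl/fl replicates 1 to 3. Every NF-YAcKO library was below every NF-YAfl/fl library, and NF-YAfl/fl replicate 3 was well above the other two. The log2 fold change was -1.20 (standard error 0.24, FDR = 0.00887).

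The call of Notch1 was lost whichever library was left out. Without NF-YAfl/fl replicate 3 the log2 fold change was -0.88 (FDR = 0.00121), which is under the size asked for a call. Without NF-YAfl/fl replicate 1 or 2 it was -1.36 (FDR = 0.0152) or -1.34 (FDR = 0.0106). Without NF-YAcKO replicates 1, 2 and 3 it was -1.14 (FDR = 0.0341), -1.24 (FDR = 0.0363) and -1.32 (FDR = 0.0248). The direction was the same in all of these fits. A gene on the opposite strand that overlaps the end of Notch1, 0610009E02Rik, was at 0.241 and 0.267 CPM in NF-YAcKO and NF-YAfl/fl.

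Notch2 (chr3:98013527-98150361, plus strand) was at 269, 253 and 273 CPM in NF-YAcKO and at 225, 270 and 201 CPM in NF-YAfl/fl. The groups overlapped in NF-YAfl/fl replicate 2, and the log2 fold change was 0.19 (standard error 0.12, FDR = 0.256).

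Notch3 (chr17:32120820-32166852, minus strand), a receptor known from pericytes and smooth muscle as well as from SCs, was at 18.5, 14.5 and 18.3 CPM in NF-YAcKO and at 55.1, 113 and 27.7 CPM in NF-YAfl/fl. The groups did not overlap, but the NF-YAfl/fl libraries were far apart from each other. Its log2 fold change was -1.94 (standard error 0.47, FDR = 0.0177), larger in size than that of Notch1 and short of the FDR threshold. Without NF-YAfl/fl replicate 3 it was -2.31 (FDR = 0.00111) and Notch3 was called lower, while without NF-YAfl/fl replicate 2, the highest library, it was -1.29 (FDR = 0.0192). DESeq2 also called it lower (log2 fold change -1.96, FDR = 7.45e-05).

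Some pericyte and smooth muscle markers moved with Notch3 and others did not. Rgs5, a pericyte marker, was at 12.6, 44.0 and 2.78 CPM in NF-YAfl/fl replicates 1 to 3 and at 1.88 to 2.01 CPM in NF-YAcKO, the same order of the NF-YAfl/fl libraries as for Notch3, but it was not called (FDR = 0.0249). The summed level of the 8 markers of pericytes and smooth muscle was 880 to 1020 CPM in NF-YAcKO and 1940 to 2320 CPM in NF-YAfl/fl, most of it from Acta2 (705 ± 89.6 and 1610 ± 196 CPM). Of the 6 that were tested, 2 were called lower (Abcc9 and Acta2), neither in the replicate order of Notch3. Pdgfrb, Cspg4 and Myh11 overlapped between the genotypes (log2 fold changes -0.99, -0.31 and 0.76). Over NF-YAfl/fl replicates 1 to 3, Pdgfrb (276, 304 and 56.5 CPM) and Myh11 (6.3, 12.8 and 0.712 CPM) had the order of Notch3. Cspg4 (208, 198 and 93.1 CPM) did not. The pericyte markers Kcnj8 and Higd1b were near 0 in every library. The part of all these markers in the result on Notch3 was not tested.

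**Figure D1:**
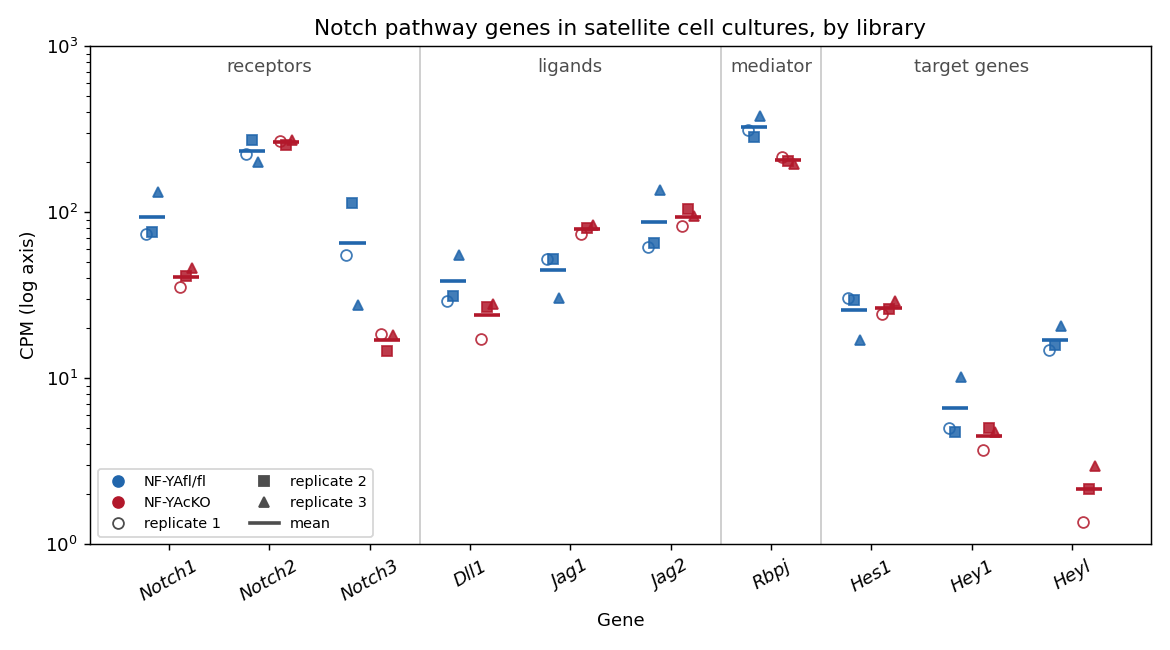
Level of the 10 genes in each library, in CPM on a log axis, with NF-YAfl/fl in blue and NF-YAcKO in red, a symbol for each replicate number and a bar for the mean of 3 libraries. Heyl, at 1.37 to 2.96 CPM in NF-YAcKO and 14.7 to 20.7 CPM in NF-YAfl/fl, shows the widest gap, and the triangle of NF-YAfl/fl replicate 3 lies away from the other blue symbols for most genes.

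Of the ligands, none was called. Jag1 was higher in all NF-YAcKO libraries, Dll1 was lower, and Jag2 overlapped. Jag1 (chr2:137081456-137116644, minus strand), a Jagged ligand, was at 74.2, 80.3 and 83.2 CPM in NF-YAcKO and at 52.4, 52.2 and 30.3 CPM in NF-YAfl/fl. It was the only one of the 10 genes above the NF-YAfl/fl range in every NF-YAcKO library. Jag1 differed by 0.82 on the log2 scale (standard error 0.21, FDR = 0.0220), which is under the size asked for a call. Without NF-YAfl/fl replicate 3, the lowest library, it was 0.59 (FDR = 0.00142). Without NF-YAfl/fl replicate 1 or 2 it was 0.93 in both fits (FDR = 0.0375 and 0.0262). Without NF-YAcKO replicates 1, 2 and 3 it was 0.83 (FDR = 0.0632), 0.77 (FDR = 0.0895) and 0.75 (FDR = 0.0853).

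Dll1 (chr17:15367354-15376872, minus strand), the Delta ligand that activated myogenic cells present to their neighbours, was at 17.3, 26.8 and 27.8 CPM in NF-YAcKO and at 29.2, 31.3 and 55.2 CPM in NF-YAfl/fl. The groups did not overlap, but the highest NF-YAcKO library came close to the lowest NF-YAfl/fl library. The log2 fold change was -0.68 (standard error 0.29, FDR = 0.106), and -0.34 (FDR = 0.20) without NF-YAfl/fl replicate 3.

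Promoter sequence was read for the members that the RefSeq table holds (GRCm38.p6, 250 bases before to 50 after a start), which are 9 promoters of 7 of the 10 genes. Hes1, Hey1 and Heyl have no entry there. CCAAT, the box that NF-Y binds, was searched on both strands. It stood in 37.4% of the 32851 promoters of the table and in 1 of the 9 promoters, the more downstream of the Dll1 starts. That promoter holds 2 boxes on the reverse strand, which begin 234 and 30 bases before the start. Both are shown on the strand of Dll1, where the box reads as its reverse complement, in capitals. The first stretch (chr17:15375977-15376073) ends where the annotated exon at this start begins and lies inside the gene, between exons, since another annotated start is farther upstream. The second (chr17:15375837-15375864) lies within that exon.
Dll1, farther box: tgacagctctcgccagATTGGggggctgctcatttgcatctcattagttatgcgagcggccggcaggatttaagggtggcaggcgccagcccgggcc
Dll1, nearer box: tctcgcatggcATTGGctgaattcttga
A match describes the letters only. Notch1 has no such box in its window, and Heyl has no window to search. Whether NF-Y acts on any of these genes, within or outside the windows, was not tested.

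Jag2 (chr12:112907819-112929776, minus strand), the other Jagged ligand, was at 82.6, 105 and 94.5 CPM in NF-YAcKO and at 61.8, 65.0 and 135 CPM in NF-YAfl/fl. NF-YAfl/fl replicate 3 was the highest of the 6 libraries and the other NF-YAfl/fl libraries were the lowest. Jag2 differed by 0.11 on the log2 scale (standard error 0.30, FDR = 0.798). It was 0.57 (FDR = 0.00636) without NF-YAfl/fl replicate 3, and below 0 without NF-YAfl/fl replicate 1 (-0.09), NF-YAfl/fl replicate 2 (-0.07) or NF-YAcKO replicate 2 (-0.01). The direction for Jag2 thus depended on which library was left out.

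Rbpj (chr5:53466152-53657362, plus strand), the DNA-binding mediator of all Notch receptors, was lower in NF-YAcKO by less than the size asked for a call. Its level was 216, 204 and 194 CPM in NF-YAcKO and 312, 284 and 378 CPM in NF-YAfl/fl. The groups did not overlap and the NF-YAcKO libraries were close to each other. The log2 fold change was -0.66 (standard error 0.13, FDR = 0.00740), and between -0.76 and -0.54 with 1 library left out. In those fits the FDR was below 0.01 only without NF-YAfl/fl replicate 2 (0.00475) or 3 (0.00231). It was 0.0227 to 0.0322 in the others. Processed pseudogenes of Rbpj that the annotation lists, Rbpj-ps1 and Rbpj-ps3, have no row in the files. Any reads from them were not counted apart and could have been assigned to Rbpj, which was not tested.

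TGGGAA, the core of the site that Rbpj binds, was searched in the same promoters on both strands and stood in 25.6% of all promoters. Among the 9 promoters of the Notch genes it stood in 2, which belong to neighbouring, overlapping starts of Rbpj itself. It begins 149 bases before the more upstream of these starts on the forward strand, and 65 bases before it on the reverse strand. Both stretches are shown with the core in capitals, the first before the annotated exon at that start (chr5:53590096-53590213) and inside the gene, which has other starts farther upstream, and the second within that exon (chr5:53590270-53590297).
Rbpj, farther core: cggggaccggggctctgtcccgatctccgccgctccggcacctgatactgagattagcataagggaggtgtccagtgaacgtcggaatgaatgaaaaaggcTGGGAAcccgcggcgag
Rbpj, nearer core: acgctcgcattTTCCCAggacccctcct
The promoters of Notch1, Notch2, Notch3, Jag1 and Jag2 hold neither motif in these windows.

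The target genes parted. Heyl fell in every NF-YAcKO library, whereas Hes1 and Hey1 overlapped. Heyl (chr4:123233556-123249875, plus strand), a Hey family repressor, was at 1.37, 2.17 and 2.96 CPM in NF-YAcKO and at 14.7, 15.9 and 20.7 CPM in NF-YAfl/fl. These are 43, 90 and 126 counts against 385, 534 and 611 counts, so that the groups are far apart and well above the limit of 3 counts. The log2 fold change was -2.97 (standard error 0.30, FDR = 0.000849). All 17 alternatives called Heyl lower, at -3.28 to -1.82 on the log2 scale, and without NF-YAfl/fl replicate 3 it was -2.81 (FDR = 0.000524). Heyl is known also from vascular smooth muscle and pericytes, whose 8 markers are given beside Notch3 (2 of 6 tested were called lower, and 3 overlapped). Their part in the result on Heyl was not tested.

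Hes1 (chr16:30064384-30067796, plus strand), a target in many cell types that also answers to other signals, was at 24.5, 26.0 and 29.3 CPM in NF-YAcKO and at 30.3, 29.7 and 17.0 CPM in NF-YAfl/fl. The NF-YAcKO libraries lay between the NF-YAfl/fl libraries. Hes1 differed by 0.05 on the log2 scale (standard error 0.23, FDR = 0.874), and -0.18 (FDR = 0.193) without NF-YAfl/fl replicate 3. It was also below 0 without NF-YAcKO replicate 3 (-0.06).

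Hey1 (chr3:8663359-8667256, minus strand), a target known in SCs, was at 3.70, 5.04 and 4.77 CPM in NF-YAcKO and at 5.04, 4.73 and 10.2 CPM in NF-YAfl/fl. NF-YAfl/fl replicate 3 stood above the other 5 libraries, which lay close together. Hey1 differed by -0.56 on the log2 scale (standard error 0.33, FDR = 0.218), and -0.12 (FDR = 0.633) without that library.

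Across the 10 genes, 5 had all NF-YAcKO libraries below all NF-YAfl/fl libraries, 1 had them above, and 4 overlapped. Of all tested genes, 26.2% were below and 29.1% above in this sense. The 5 lower genes were Notch1, Notch3, Dll1, Rbpj and Heyl.

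**Figure D2:**
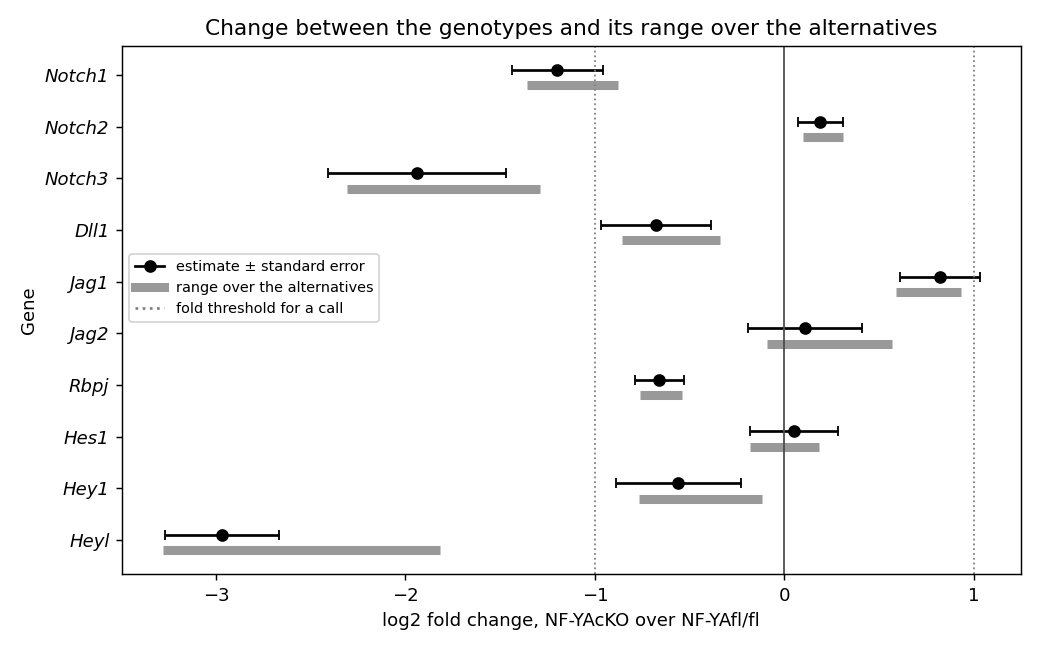
Log2 fold change of NF-YAcKO over NF-YAfl/fl for each of the 10 genes (points, with the standard error as bars) and the range of its log2 fold change over the 17 alternatives (grey). Heyl stays beyond the fold threshold of -1 throughout, the grey range of Notch1 (-1.36 to -0.88) crosses it, and those of Jag2 and Hes1 include 0.

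Levels per transcript length (TPM, mean ± SD over 3 libraries) ordered the genes differently from counts. Rbpj led in both genotypes, with 45.8 ± 6.06 TPM in NF-YAcKO and 75.9 ± 5.03 TPM in NF-YAfl/fl, above every library of the next gene. Notch2, Hes1 and Jag2 followed in both, and their ranges overlapped. In NF-YAcKO, Jag1 (14.7 ± 1.17 TPM), Dll1 (7.52 ± 1.62 TPM) and Notch1 (4.66 ± 0.633 TPM) came next without overlap between neighbours. Notch3 and Hey1, which overlapped, were both at 2.34 TPM, and Heyl was last at 0.527 ± 0.194 TPM. In NF-YAfl/fl the lower genes were closer. Dll1 was at 12.5 ± 2.84 TPM, Notch1 at 11.1 ± 2.20 TPM, Notch3 at 10.3 ± 8.48 TPM, Jag1 at 8.61 ± 3.40 TPM, Heyl at 4.39 ± 0.596 TPM and Hey1 at 3.55 ± 1.0 TPM, each overlapping its neighbour. Jag1 stood above Dll1 in every NF-YAcKO library, whereas in NF-YAfl/fl their ranges overlapped (4.79 to 11.31 TPM and 9.60 to 15.28 TPM).

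The make-up of each family was examined as the share of a gene in the summed TPM of its family. Notch2 made 80.8%, 79.7% and 78.5% of the receptors in NF-YAcKO and 59.2%, 53.5% and 52.4% in NF-YAfl/fl. The share of Notch1 was 13.6% ± 1.5 in NF-YAcKO and 25.5% ± 11.2 in NF-YAfl/fl, and that of Notch3 was 6.75% ± 0.691 and 19.5% ± 10.1. The difference in the share of Notch1 was -11.9 percentage points with all libraries and -5.57 without NF-YAfl/fl replicate 3, and that of Notch3 was -12.7 and, without NF-YAfl/fl replicate 2, -7.64. The summed level of the receptors was 34.4 ± 4.07 TPM and 47.4 ± 16.8 TPM (exact permutation test, two-sided, p = 0.3), so that the make-up parted the genotypes where the sum overlapped.

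Among the ligands, Dll1 made 14.0%, 17.6% and 18.9% in NF-YAcKO and 27.6%, 28.9% and 31.2% in NF-YAfl/fl. Jag1 had a share of 33.1% ± 2.14 against 21.2% ± 9.95, and Jag2 of 50.1% ± 1.81 against 49.6% ± 8.20. The share of Jag1 differed by 11.9 percentage points with all libraries and by 6.19 without NF-YAfl/fl replicate 3, and that of Jag2 by 0.496 and 5.22. The summed level of the ligands was 44.4 ± 3.13 TPM in NF-YAcKO and 42.5 ± 7.21 TPM in NF-YAfl/fl (exact permutation test, p = 0.9). Among the target genes, Hes1 made 88.7% ± 1.37 in NF-YAcKO and 72.8% ± 13.0 in NF-YAfl/fl. Heyl made 1.47%, 2.10% and 2.56% in NF-YAcKO and 11.2%, 12.2% and 20.5% in NF-YAfl/fl, and Hey1 had 9.26% ± 1.09 and 12.6% ± 7.88. The share of Hes1 differed by 15.9 percentage points with all libraries and by 8.43 without NF-YAfl/fl replicate 3. With shares of counts not scaled to length, it differed by 28.4 and that of Heyl by -28.3, against -12.6 in TPM. The summed level of the target genes overlapped, with 25.4 ± 3.13 TPM and 32.0 ± 9.63 TPM (exact permutation test, p = 0.4).

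In 7 of the 9 shares every NF-YAcKO library lay on one side of every NF-YAfl/fl library. Shares were not counted in this way for other gene families, so that the 7 have no background of their own. In CPM, 26.2% of all tested genes had every NF-YAcKO library below and 29.1% above. A two-sided exact permutation test gave p = 0.1 for each of the 7 shares, or 0.129 after adjustment over the 9 shares. With 3 libraries in each group no smaller p is possible. Jag2 and Hey1 were the exceptions (exact permutation test, p = 1.0 each). Shares within a family sum to a whole, so that a lower share of 1 gene raises the others.

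**Figure D3:**
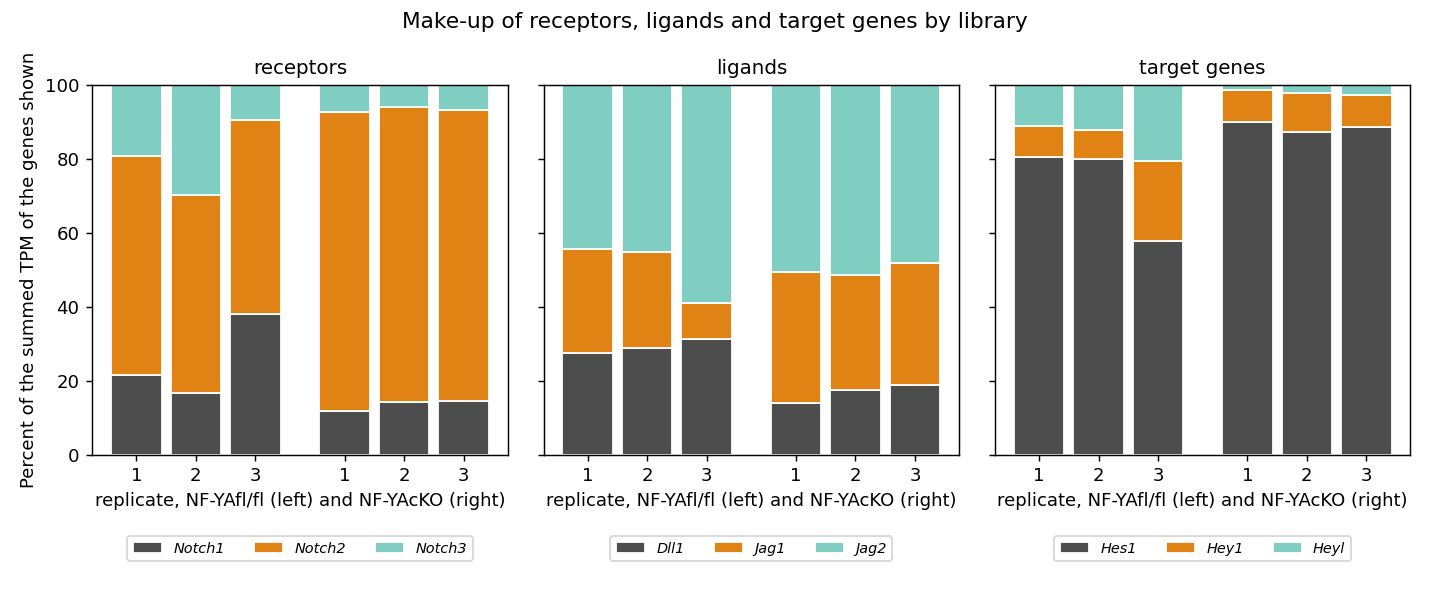
Share of each gene in the summed TPM of the receptors, of the ligands and of the target genes, in percent, with a stacked bar for each library (NF-YAfl/fl replicates on the left, NF-YAcKO replicates on the right of each panel). Notch2 takes 78.5% to 80.8% of the receptors in NF-YAcKO and 52.4% to 59.2% in NF-YAfl/fl, and Heyl shrinks to 1.47% to 2.56% of the target genes.

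The rest of the pathway was described with 59 further genes in 9 lists, of which 51 passed the filter on low counts. Of these, 2 were called lower and 0 higher, 12 were lower and 3 higher with an FDR under 0.05, and 36 were neither. At an unadjusted p under 0.05 edgeR gave 14 lower and 3 higher, and DESeq2 called 3 lower and 0 higher. The median log2 fold change was -0.17. Among all tested genes, as given above, 7.67% were called lower, and 18.9% were lower and 19.7% higher with an FDR under 0.05. As shares of the 51 genes, the counts at an FDR under 0.05 were 23.5% and 5.88%.

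The called genes act on ligands or resemble one. Neurl1a (chr19:47178820-47259441), a ubiquitin ligase of the Neuralized family that acts on Notch ligands, was at 4.21, 5.96 and 9.21 CPM in NF-YAcKO and at 107, 84.1 and 107 CPM in NF-YAfl/fl. It fell 15.4-fold in mean level (log2 fold change -3.94, FDR = 0.0003), and no NF-YAcKO library came near the NF-YAfl/fl range. Dner (chr1:84369839-84696221), a transmembrane protein with EGF-like repeats described as a Notch ligand, was at 1.88, 2.65 and 2.49 CPM in NF-YAcKO and at 19.4, 20.7 and 38.7 CPM in NF-YAfl/fl (log2 fold change -3.48, FDR = 0.000608). The other ligand ubiquitin ligases did not move with Neurl1a. Mib1, the ligase best known for Delta ligands, was at 186 ± 2.82 CPM in NF-YAcKO and 194 ± 2.41 CPM in NF-YAfl/fl (FDR = 0.563), and Mib2 and Neurl1b did not pass the test. The differentiated muscle markers given above also differ by genotype, and their part in the results on Neurl1a and Dner was not tested.

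Of the other Hes and Hey genes, 2 of 6 were tested, and Hes2, Hes3, Hes5 and Hes7 were too low. Hes6, a member that promotes myogenic differentiation and is not a typical Notch target, was at 80.7, 141 and 140 CPM in NF-YAcKO and at 272, 245 and 530 CPM in NF-YAfl/fl (log2 fold change -1.53, FDR = 0.0145). The groups did not overlap, and the FDR missed the threshold. Without NF-YAfl/fl replicate 3 the log2 fold change was -1.10 (FDR = 0.00811) and Hes6 was called lower.

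On the nuclear side, 3 of the 9 corepressors tested were lower with an FDR under 0.05 and none was higher, against 18.9% and 19.7% of all tested genes, with a median log2 fold change of -0.52. The Groucho family members Tle2 and Tle4 were at 2.77 ± 0.167 and 6.78 ± 0.412 CPM in NF-YAcKO, and at 5.23 ± 1.92 and 12.5 ± 2.57 CPM in NF-YAfl/fl. Their log2 fold changes were -0.92 (FDR = 0.0383) and -0.88 (FDR = 0.0113), both under the size asked for a call. Tle4 was called lower without NF-YAfl/fl replicate 3 (log2 fold change -1.04, FDR = 0.000911). Of the 6 coactivators, 1 was lower and 1 higher with an FDR under 0.05. None was called.

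Of the negative regulators, 8 of 9 were tested. With an FDR under 0.05, 3 were lower and 0 higher, against 18.9% and 19.7% of all tested genes. Numbl, a Numb family protein that restrains Notch, was at 25.2, 23.8 and 26.9 CPM in NF-YAcKO and at 47.8, 39.2 and 42.7 CPM in NF-YAfl/fl (log2 fold change -0.77, FDR = 0.00272), which is under the size asked for a call. Nrarp, a feedback inhibitor and direct Notch target, was at 0.309 ± 0.0844 and 0.330 ± 0.194 CPM and did not pass the test.

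Receptor processing moved little. Of the 9 ADAM proteases and gamma-secretase subunits, 1 was lower and 1 higher with an FDR under 0.05. Of all tested genes, 18.9% were lower and 19.7% higher at that FDR. The list's log2 fold changes ran from -0.86 to 0.31. The lowest was that of Psen2, a presenilin, the catalytic subunit of gamma-secretase, at 8.28 ± 2.65 CPM in NF-YAcKO and 15 ± 2.83 CPM in NF-YAfl/fl (FDR = 0.0394). Of the genes for receptor glycosylation and furin cleavage, 5 of 6 were tested, with 1 lower and 1 higher at an FDR under 0.05. Among the other receptors and ligands, 4 of 6 were tested, and Dner was the only one to pass. Dlk2 was called higher only when NF-YAfl/fl replicate 3 was left out (log2 fold change 1.76, FDR = 0.00164). The 4 collagen genes that Notch drives in SCs, Col5a1, Col5a3, Col6a1 and Col6a2, all overlapped between the genotypes, with log2 fold changes from -0.18 to 0.67. Their summed level was 745 to 846 CPM in NF-YAcKO, and 846, 1330 and 366 CPM in NF-YAfl/fl replicates 1 to 3. The summed markers of fibro-adipogenic progenitors had the same order in NF-YAfl/fl (199, 266 and 38.1 CPM). The part of these cells in the collagen levels was not tested.

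**Figure D4:**
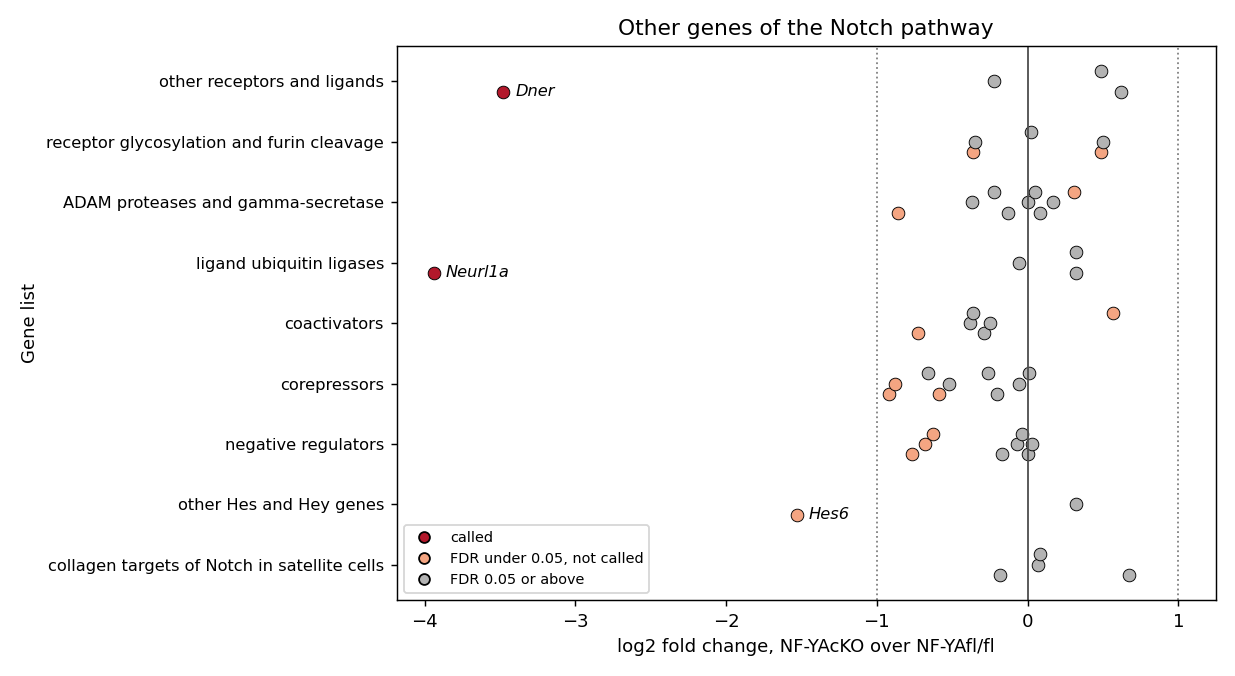
Log2 fold change of NF-YAcKO over NF-YAfl/fl for the 51 tested genes of the 9 further lists of the pathway, a row for each list and a point for each gene, coloured by whether it was called or had an FDR under 0.05. Neurl1a and Dner lie at -3.94 and -3.48, Hes6 at -1.53, and all others within 1 of 0.

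The transcripts of the members were compared as the percent of a gene's TPM that RSEM assigned to each. Such shares are estimates, since transcripts of a gene share most of their reads. Notch1, Notch2 and Heyl have a single transcript in the files. In 6 genes at least 2 transcripts reached 5% in a library, which gave 18 transcripts, and in 7 of these no library of one genotype entered the range of the other. Their two-sided exact permutation p was 0.1, or 0.257 after adjustment over the 18. Those 7 belong to Rbpj, Jag1 and Jag2. The same count was not made over the transcripts of all genes, so that the 7 have no background to be read against. Shares within a gene sum to a whole, so that the 7 are not independent of each other.

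Rbpj had the most transcripts, 9 in all and 7 with at least 5% in a library. The form of 5590 nt took 21.0%, 26.7% and 32.5% in NF-YAcKO and 4.43%, 9.69% and 12.6% in NF-YAfl/fl. The form of 5410 nt took 31.7%, 26.6% and 21.9% in NF-YAcKO and 44.3%, 36.2% and 38.8% in NF-YAfl/fl. The former was higher in every NF-YAcKO library and the latter lower. In the annotated transcripts paired with them (GENCODE, GRCm38) both forms have a first exon that ends at chr5 position 53590486. That exon begins at 53590368 in the 5590-nt form and at 53590214 in the 5410-nt form. The annotated exons do not add up exactly to the lengths of the forms. The 5590-nt form then has 2 exons that the 5410-nt form lacks (chr5:53600701-53600750 and chr5:53600833-53600962), and the remaining exons are shared. The forms of 5841 and 6205 nt also had lower shares in every NF-YAcKO library (6.63% ± 0.542 against 12.5% ± 2.60, and 4.55% ± 0.585 against 6.06% ± 0.0896), and the form of 3374 nt overlapped (28.8% ± 4.0 and 28.3% ± 4.86).

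The main Jag1 form, of 5493 nt, took 93.1%, 92.5% and 92.0% in NF-YAcKO and 87.7%, 82.6% and 89.8% in NF-YAfl/fl, and a form of 11065 nt took the rest. The Jag2 form of 4884 nt took 21.6%, 31.4% and 23.7% in NF-YAcKO and 4.36%, 18.0% and 4.44% in NF-YAfl/fl. The gap between the nearest libraries was small there, since NF-YAfl/fl replicate 2 was close to the NF-YAcKO range. The transcripts of Notch3, Dll1 and Hes1 overlapped between the genotypes.

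**Figure D5:**
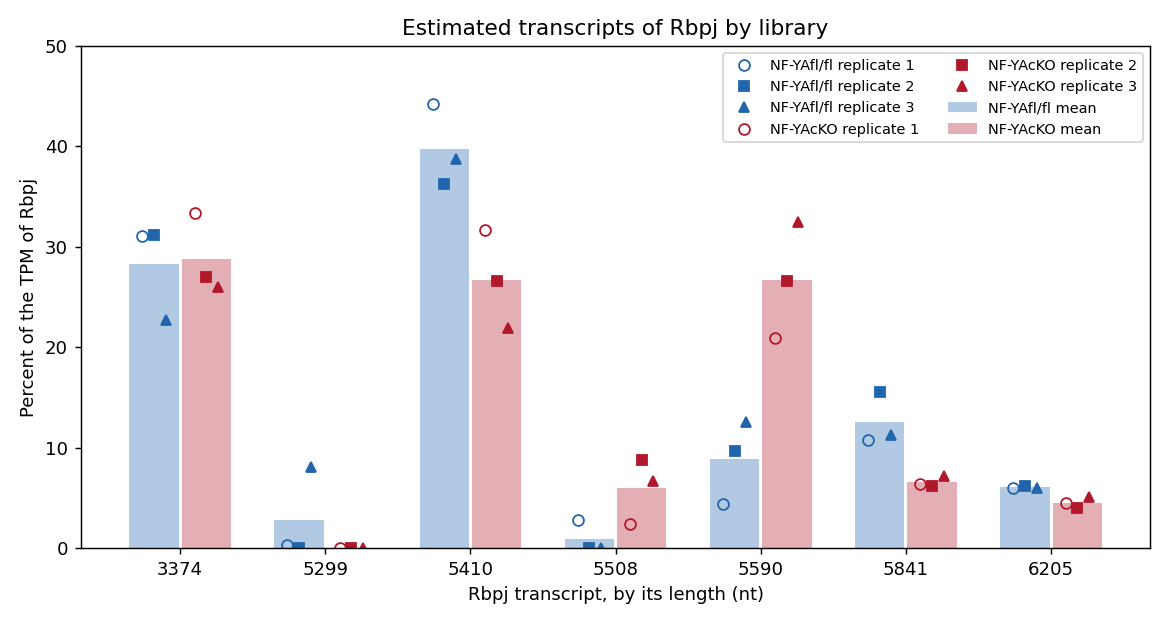
Percent of the TPM of Rbpj assigned to each of its 7 transcripts with at least 5% in a library, which are named by length in nt, with bars for the mean of 3 libraries and a symbol for each library (NF-YAfl/fl in blue, NF-YAcKO in red). The 5590-nt form is higher (26.7% against 8.90%) and the 5410-nt form lower (26.7% against 39.7%) in NF-YAcKO.

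The genes whose pattern over the 6 libraries was most like that of Heyl and of Notch1 were sought among tested genes averaging 10 CPM or more, by the root-mean-square difference of log2(CPM + 0.5) after each gene was centred on its own mean. For Heyl, out of 9455 genes, these were Lrrn1 (difference 0.095, 64.1 CPM in NF-YAcKO and 451 CPM in NF-YAfl/fl), Fndc1 (0.137, 7.69 and 53.3 CPM) and Gm39518 (0.164, 3.64 and 23.7 CPM). For Notch1, out of 9454 genes, they were Vash2 (0.084, 35.3 and 85 CPM), Ncoa1 (0.087, 55.7 and 140 CPM) and Htra3 (0.088, 6.21 and 14.0 CPM). The likeness is over 6 libraries that fall into 2 groups, and many genes share such a pattern.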

How the data were processed

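Per the labels and the study's methods, the authors prepared stranded libraries from 500 ng of total RNA, mapped reads with bowtie2 to the transcriptome of mm10 and estimated gene and transcript levels with RSEM. These deposited expected counts are neither normalized nor filtered and need not be whole, since reads shared between transcripts or paralogs are split by estimate. TPM values, also from the authors' RSEM run, are scaled to transcript length and keep no depth, and the deposited percent of each transcript is its part of the gene's TPM.

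Expected counts were rounded, and genes were kept that exceeded 10 counts in 2 or more libraries (17348 of 35976). Genotype was tested as the sole factor with edgeR 4.0.16 in R 4.3.3, by its quasi-likelihood test after TMM normalization, with Benjamini-Hochberg adjustment over all kept genes. The study's methods use DESeq2, which was an alternative here (1.42.0). Standard errors were derived from the log2 fold change and the F statistic. Shares were compared with exact permutation tests. Groups and replicate numbers come from the labels. The members and the lists of pathway genes and markers were chosen with earlier results of these data known. The genes named are the 10 members, the called genes of the pathway lists, the 5 next largest changes with an FDR under 0.05 and a mean of at least 1 CPM, and the genes most like Heyl and Notch1. Mib1, Mib2, Neurl1b, Nrarp, Dlk2, the low Hes genes and the collagen genes fall outside this rule and were named after their values were seen, as were Xist and the markers.

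In a simulation modelled on these libraries (17002 genes), 62% of changes of 1.5 and 96% of changes of 3 on the log2 scale were called, and 1 of 16802 unchanged genes was. The simulation gave both genotypes the same spread for each gene. The biological coefficient of variation was 0.31 in NF-YAfl/fl and 0.105 in NF-YAcKO, so that these rates need not hold for the real libraries. A floor of 3 counts is 0.0705 to 0.115 CPM and covers counting error only. Alternatives were other size factors, other filters, unrounded counts, limma 3.58.1 on log2(TPM + 1) and log2(TPM + 0.1), a looser FDR of 0.05, a test of changes beyond 1 on the log2 scale, blocking by replicate number, and leaving out each library. Coordinates are from GENCODE M21 (GRCm38, the build of mm10), promoter sequences from the RefSeq table (GRCm38.p6). Plots were drawn with matplotlib 3.10.9.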

Additional observations from a re-analysis of the deposited data

How the results depend on the processing

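Of 17 alternatives to the comparison, Heyl was called lower in 17, Notch1 in 10 and Notch3 in 4, and the direction of every member but Jag2 and Hes1 was kept. The number of the 10 genes called lower was 1 in the test against a log2 fold change of 1, and 1 to 2 with a library left out. Of the other pathway genes, 2 to 4 were called lower and 0 to 1 higher with a library left out, and Hes6, Tle4 and, on the higher side, Dlk2 were the additions without NF-YAfl/fl replicate 3. With a library left out, the log2 fold change ran from -0.09 to 0.57 for Jag2 and from -0.18 to 0.18 for Hes1, the share of Jag2 differed by -2.13 to 5.22 percentage points, and that of Hey1 by -5.72 to 1.22. The share of Jag2 differed by -1.68 percentage points when counts were not scaled to length. Over all genes, the numbers called lower and higher were 1331 and 806, and they moved most to 510 and 97 (test against a log2 fold change of 1), 704 and 231 (limma on log2(TPM + 1)), 2025 and 1163 (FDR under 0.05), and to 523 to 1684 and 177 to 890 with a library left out. The cause of these shifts was not tested.

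The replicate numbers were not taken to pair the samples, since the deviations of same-numbered libraries correlated at 0.19, -0.101 and 0.06. With the number as a replicate block, 947 genes were called lower and 625 higher, Heyl (log2 fold change -3.02) and Notch1 (-1.16) were called, and the members called lower were 2. The lowest count of a member was 43, and the biological coefficient of variation was 0.31 in NF-YAfl/fl and 0.105 in NF-YAcKO.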
